A study of Mus musculus with 23 samples.

Results

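The data described here are the 4 total RNA arrays, of 23 arrays in the series, that compared the prefrontal cortex of tumour-injected and control mice 72 h after the injection. They were chosen by their titles, which give 72 h and the numbers 3 or 4, and they form 2 labelled dye swaps. All mice were female Balb/c mice aged 8 weeks. The tumour group received 100000 cells of 4T-1, a mammary carcinoma line from a Balb/c mouse, under the skin, suspended in 100 µl of PBS (phosphate-buffered saline), and the control group received 100 µl of PBS alone. Every group compared below is such a pair, at 72 h (2 replicates) or, for the comparison between times, at 18 h (3 replicates) and 192 h (2 replicates). No label says if single mice or pools were used, so p-values measure only the spread between these samples, and part of it may be technical. The series text speaks of 3 samples at this time, whereas the titles carry 4 different numbers, and which of them are separate samples was not settled. Another 3 arrays at 72 h were made from poly A RNA without a swap and were not used here.

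The prefrontal cortex is a forebrain region of layered excitatory neurons, inhibitory interneurons, glia and vessels. Signals from the body reach it through the blood, through endothelial cells and through afferent nerves. Peripheral inflammation and stress hormones are known to change the transcripts of glia, vessel cells and neurons there, and early tumour growth is one situation in which such signals have been looked for. The arrays address whether transcript levels in this region differ 72 h after the inoculum. Because the tissue was measured in bulk, fewer cells of a type and less RNA per cell cannot be told apart.

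Each array carries tumour RNA in 1 dye and PBS RNA in the other, so a spot gives a ratio directly. In replicates 3 and 4, 1 array has tumour RNA in Cy5 and the other has it in Cy3. Log2 ratios above 0 stand for more RNA in the tumour group. The sign is likely but not settled, since no header ties the scanner's channels to the dyes and it rests on the labelled dyes and the sign of the authors' own log ratios. After the Cy3-tumour array was turned to tumour over PBS, both arrays of a swap were averaged into the value of that replicate. The 4 arrays gave a ratio for 6841, 7556, 7190 and 7471 oligos (replicate 3 with tumour in Cy5 and in Cy3, then replicate 4 in the same order), and 4228 oligos of 4158 genes had a value on all 4 and were tested. No spot counts or molecule counts exist for arrays, so the number of arrays limits the precision.

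No transcript passed at 72 h. Limma called 0 of 4228 oligos at an adjusted p under 0.05 (0%), with a smallest adjusted p of 0.995. At an unadjusted p under 0.05, 103 oligos (2.44%) were reached, 55 above 0 (1.3%) and 48 below 0 (1.14%), against 211.4 that a test with no true differences gives on average. The log2 ratios ran from -0.75 to 0.83, and 27 oligos lay beyond 0.5 in either direction. The limma SE had a median of 0.15, the 95% interval had a median half-width of 0.32, and for 99.6% of the oligos it lay between -1 and 1.

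The values of single arrays show how little the 4 measurements shared. Within the swap of replicate 3, the turned ratios of the 2 arrays correlated at r = -0.484 over 5891 oligos, and 39.8% of the oligos had the same sign on both. Within the swap of replicate 4, r was -0.124 over 6042 oligos, with 53.5% of 1 sign. The mean of replicate 3 and the mean of replicate 4 correlated at r = -0.106 over the 4228 oligos, and 48.6% had the same sign. These correlations run across oligos, which are not independent replicates. A correlation below 0 within a swap arises where Cy5 over Cy3 kept its sign across both arrays. If either array of a swap did not carry the labelled dyes, averaging would cancel a difference between tumour and PBS, and this was not tested.

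The dye pattern had 1 visible arm in each swap. On the Cy5-tumour array of replicate 3, 176 tested oligos lay below -1, and 157 of them were above 0 on the Cy3-tumour array of the same RNAs. On the Cy3-tumour array of replicate 4, 86 oligos lay above 1, and 73 of them were below 0 on the Cy5-tumour array. The 2 groups shared 62 oligos. Another fit took all 14 total RNA arrays of 18, 72 and 192 h as observations, with 1 dye term shared by the times. That dye term, which is not particular to 72 h, was called for 53 of 7262 oligos (0.73%), all toward lower Cy5. The tumour term of 72 h was called for 0.

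**Figure D1:**
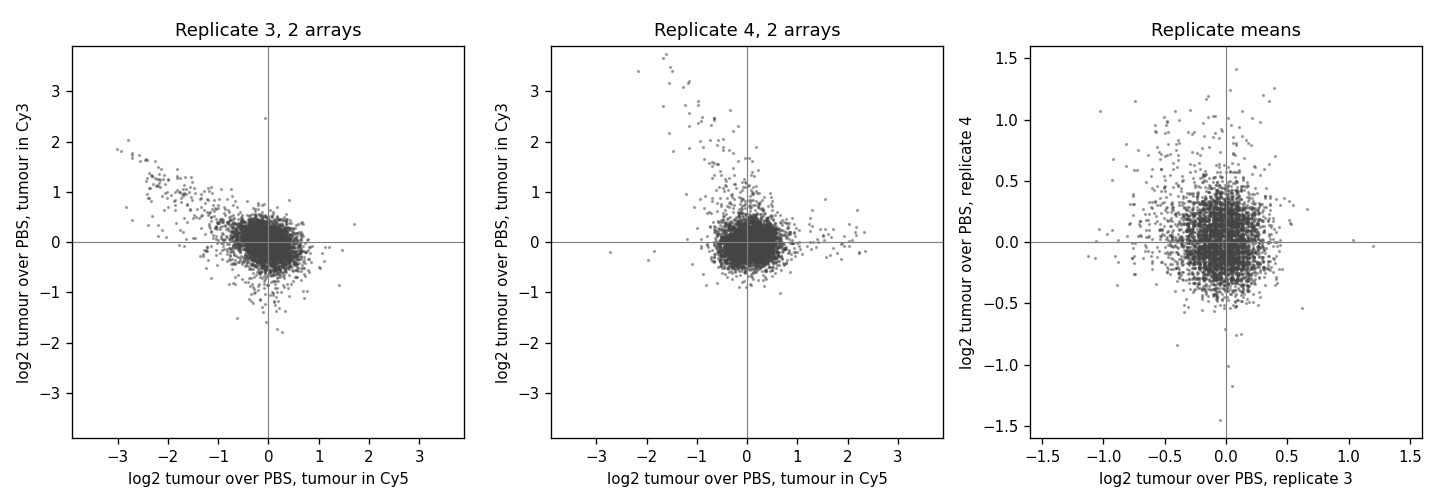
Each point is 1 of 4228 oligos. The left and middle panels plot the log2 ratio of tumour over PBS on the Cy3-tumour array against the Cy5-tumour array of replicates 3 and 4, and the right panel plots replicate 4 against replicate 3; points run into the upper left in both swaps, and the right panel shows no common direction (r = -0.106).

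Position on the slide moved with the ratios as well. The slide holds 48 blocks in 12 rows. On the Cy5-tumour array of replicate 4, the mean log2 ratio of the tested oligos ran from -0.23 in the first row of blocks to 0.53 in row 11, and the block accounted for 38.8% of the variance of its ratios. On the Cy5-tumour array of replicate 3 the row means ran from -0.36 to 0.14 (11.3% of the variance by block), and on its Cy3-tumour array from 0.23 in the first row to -0.15 in row 12 (16.1%). The Cy3-tumour array of replicate 4 varied least (5.32%). The mean of both replicates was below 0 for 71.7% of the oligos in rows 1 to 6 and for 31.5% in rows 7 to 12. With loess within blocks, an alternative normalization that removes such gradients, these shares were 50.1% and 49.5%.

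**Figure D2:**
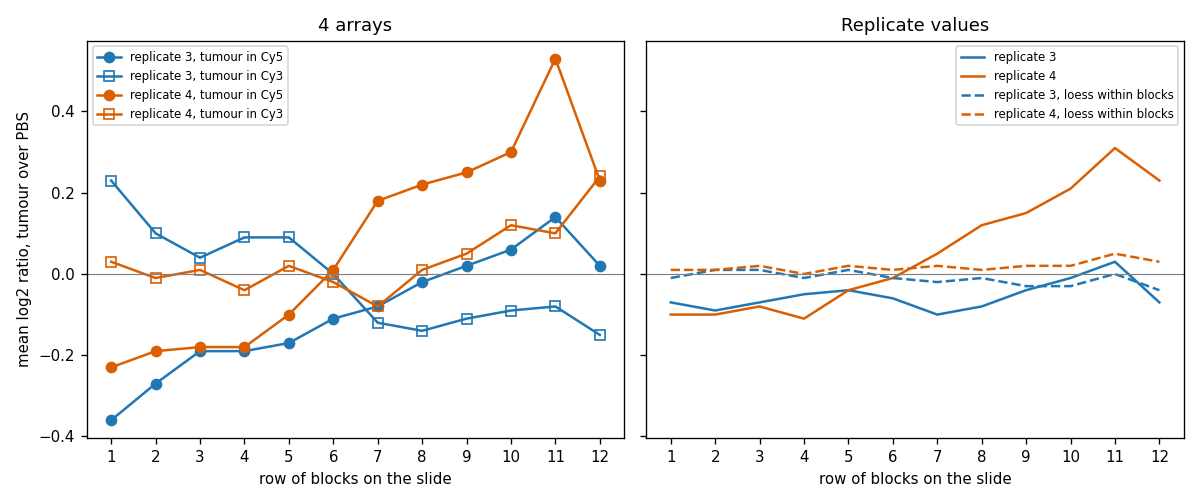
Mean log2 ratio of tumour over PBS of the tested oligos in each of 12 rows of blocks, for the 4 arrays (left) and for the 2 replicate means (right), with dashed lines for loess within blocks. The Cy5-tumour array of replicate 4 climbs to 0.53 in row 11, while the dashed lines stay between -0.04 and 0.05.

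The genes with the smallest p above 0 were led by Prelid3b, a carrier of phospholipids between mitochondrial membranes. Its log2 ratio was 0.86 and -0.07 on the arrays of replicate 3 (tumour in Cy5, then in Cy3) and 2.33 and 0.20 on those of replicate 4. The Cy5-tumour array of replicate 4 was far above the other 3. The mean was 0.83 ± 0.18 (limma SE, n = 2), with an unadjusted p of 0.000385 and an adjusted p of 0.995. The other 5 replicates, at 18 and 192 h, gave -0.18 to -0.05 for this gene.

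Ncbp2, the small subunit of the nuclear cap-binding complex, read 0.82, -0.22, 2.03 and 0.36 on the 4 arrays in the same order. Dag1, which encodes dystroglycan, a receptor that ties cells to the extracellular matrix, read 0.43, 0.14, 1.70 and 0.27. Napg encodes gamma-SNAP, a factor of membrane fusion, and read 0.30, -0.15, 2.18 and 0.64. In all 3, as in Prelid3b, the Cy5-tumour array of replicate 4 was highest and the Cy3-tumour array of replicate 3 lowest. Their means were 0.75 ± 0.18, 0.63 ± 0.17 and 0.74 ± 0.23 (limma SE, n = 2).

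The other 6 of the 10 were Serpinb7, a serine protease inhibitor (0.75), Nt5c3b, a cytosolic nucleotidase (0.55), Svbp, the partner of the tubulin-trimming vasohibins (0.61), Abcf3, an ATP-binding protein of the ABC family (0.49), 1700009J07Rik (0.50) and Pfkfb2, which makes an activator of glycolysis (0.60). In all 10 of these oligos the Cy5-tumour array of replicate 4 gave the highest of the 4 values, 1.03 to 2.33. The other 3 arrays lay between -0.25 and 0.86. Replicate 4 exceeded replicate 3 in 10 of 10 (0.64 to 1.41 against 0.08 to 0.40), and 4 of 10 were above 0 on all 4 arrays (Dag1, Serpinb7, Abcf3 and 1700009J07Rik). Pfkfb2 had another tested oligo, which read 0.10, -0.17, 0.18 and 0.81 with a mean of 0.23. There the Cy3-tumour array of replicate 4 was highest.

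These genes also lay together on the slide. Of the 10, 9 were printed in row 11 of the blocks, which holds 5.56% of the tested oligos, and the remaining one, Nt5c3b, was in row 10. Over all oligos tested, 47 lay above 1 on the Cy5-tumour array of replicate 4, and 42 of them were in rows 10 to 12 (20.1% of the oligos). Only 27 of the 47 were above 0 on the Cy3-tumour array of the same RNAs. The mean of the 10 was 0.64, and 0.42 with loess within blocks. Napg moved most, from 0.74 to 0.20. How much of these values comes from position was not tested.

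On the lower side, Abcc6, an export pump best known from liver and kidney, was the gene of smallest p. It read -0.07 and -0.73 on the arrays of replicate 3 and -0.82 and -0.85 on those of replicate 4. All 4 values were below 0, 3 of them close together and the Cy5-tumour array of replicate 3 near 0. The mean was -0.62 ± 0.15 (limma SE, n = 2; unadjusted p = 0.00179, adjusted p = 0.995), and -0.54 with loess within blocks. At the other times it gave 0.30 and 0.43 in the replicates at 192 h and -0.35 in the 1 replicate measured at 18 h.

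Glrb, the beta subunit that anchors the inhibitory glycine receptor, read -2.32, 0.53, -0.61 and -0.09. Cpeb4, which controls translation through the poly A tail, read -1.86, 0.73, -0.61 and -0.08. Apod, a lipid-binding lipocalin of glia, read -2.72, 0.45, -0.36 and 0.13. In these 3 and in Apobec1, the cytidine deaminase that edits apolipoprotein B mRNA (-2.83, 0.70, -0.27 and 0.02), the Cy5-tumour array of replicate 3 was far below the rest and the other array of that swap was above 0. Their means were -0.62, -0.46, -0.62 and -0.60. These are members of the dye arm described above. With replicate 3 taken from its Cy3-tumour array alone, all 4 means were above 0, from 0.09 (Glrb) to 0.29 (Apobec1).

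Atp4a, the catalytic subunit of the stomach's proton pump, rested on the other replicate. It read -0.38, 0.28, -2.72 and -0.19, so 1 array held most of its mean of -0.75 ± 0.24. Tor1b, a torsin ATPase of the endoplasmic reticulum (-1.03, -0.45, -0.11 and -0.42), and Ramp3, a partner of the calcitonin receptor family (-1.25, -0.52, -0.15 and -0.18), were below 0 on all 4 arrays. Pygo2, a coactivator of Wnt signalling (-0.38, -1.13, 0.01 and -0.53), and Dnajb12, a chaperone partner in the endoplasmic reticulum membrane (-0.34, -0.34, -1.19 and 0.06), were below 0 on 3 of the 4 arrays. Of the 10 lower genes, 10 were printed in rows 1 to 6, which hold 56.9% of the tested oligos. Their mean was -0.57, and -0.47 with loess within blocks.

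**Figure D3:**
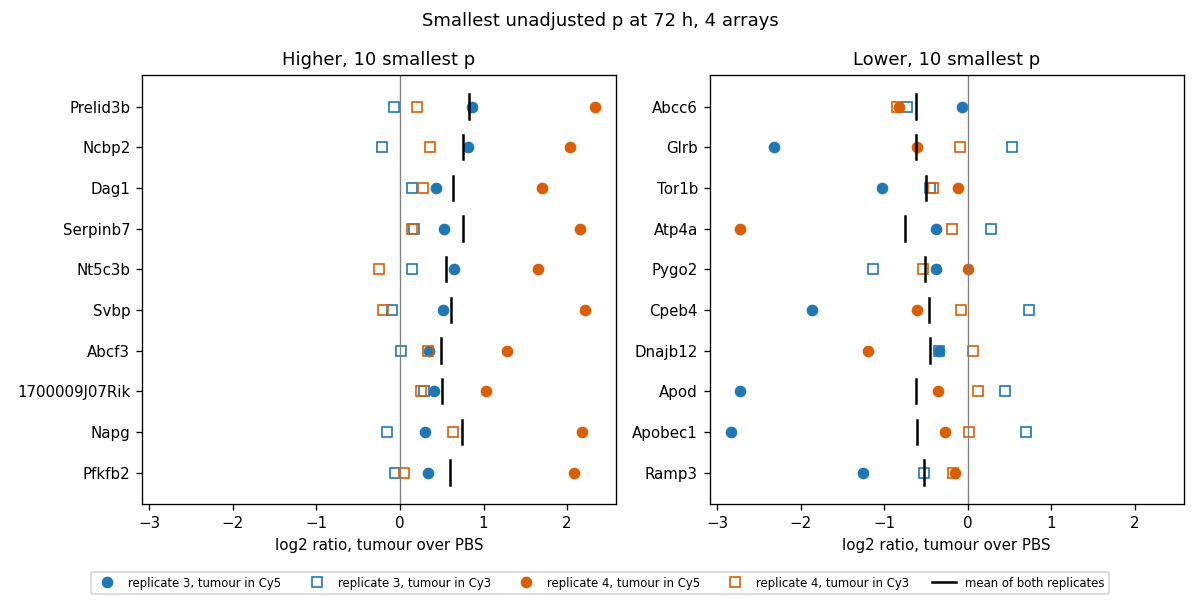
Log2 ratio of tumour over PBS on each of the 4 arrays for the 10 genes of smallest p above 0 (left) and below 0 (right). Filled points are Cy5-tumour arrays, open squares are Cy3-tumour arrays, and the black bar is the mean of both replicates. On the left the filled point of replicate 4 stands apart at 1.03 to 2.33 in every oligo shown.

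A second group of genes was chosen for 1 sign on all 4 arrays rather than for a small p. Of the 4228 oligos, 404 (9.56%) had 1 sign of tumour over PBS on all 4 arrays, 158 above 0 (3.74%) and 246 below 0 (5.82%). That is a smaller share than 4 independent signs at even odds would give on average. More oligos, 850 (20.1%), had 1 sign of Cy5 over Cy3 on all 4. Of the 158 above 0, 74.7% lay in rows 7 to 12, and of the 246 below 0, 91.5% lay in rows 1 to 6.

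Above 0, the weakest array was farthest from 0 in Cntn6, a contactin adhesion molecule of neurons, with 0.36, 0.36, 0.47 and 0.28 on the 4 arrays. Hpca, the neuronal calcium sensor hippocalcin, gave 0.36, 0.37, 0.35 and 0.26. Nelfb, a subunit of a complex that pauses RNA polymerase, gave 0.25, 0.28, 0.26 and 0.22. Every array was above 0 by the rule of choice, and among these 3 genes the 4 arrays lay closest together in Nelfb. Their means were 0.37 ± 0.14, 0.33 ± 0.14 and 0.25 ± 0.15 (limma SE, n = 2; adjusted p = 0.995). All of them lay in rows 9 to 12, and with loess within blocks the value of replicate 4 was 0.12, 0.12 and 0.04, while that of replicate 3 was 0.31, 0.30 and 0.21.

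Foxp3, the transcription factor of regulatory T cells, gave 0.27, 0.35, 0.23 and 0.97. Il12rb1, a subunit of interleukin receptors, gave 0.22, 0.25, 0.34 and 0.90. In both, 3 arrays were close to each other and the Cy3-tumour array of replicate 4 was highest. Their means were 0.45 ± 0.15 and 0.43 ± 0.16 (limma SE, n = 2; adjusted p = 0.995). Both spots were dim, at percentiles 30 and 36 of the brightness on these arrays. Foxp3 had no value at 18 or 192 h, and Il12rb1 had 0.06 in 1 replicate at 192 h and -0.04 in 1 at 18 h.

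Below 0, Cks2, a small partner of the cyclin-dependent kinases, gave -0.27, -0.23, -0.40 and -0.36, with a mean of -0.32 ± 0.14. The zinc finger gene Zfp53 gave -0.46, -0.48, -0.24 and -0.21. Cxadr, an adhesion protein known as a virus receptor, gave -0.25, -0.27, -0.20 and -0.45. By the rule of choice none of the 4 arrays reached 0 in these 3 genes, and both arrays of replicate 3 were below those of replicate 4 in Zfp53. Epyc, a proteoglycan of cartilage (-0.20, -0.46, -0.51 and -0.41), was the dimmest of the group, at percentile 14. For 4932438H23Rik the values were -0.68, -0.24, -0.30 and -0.22, and for Tes, a focal adhesion protein, they were -0.50, -0.29, -0.20 and -0.20. Tes turned to 0.06 with loess within blocks and to 0.30 in the authors' deposited table.

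**Figure D4:**
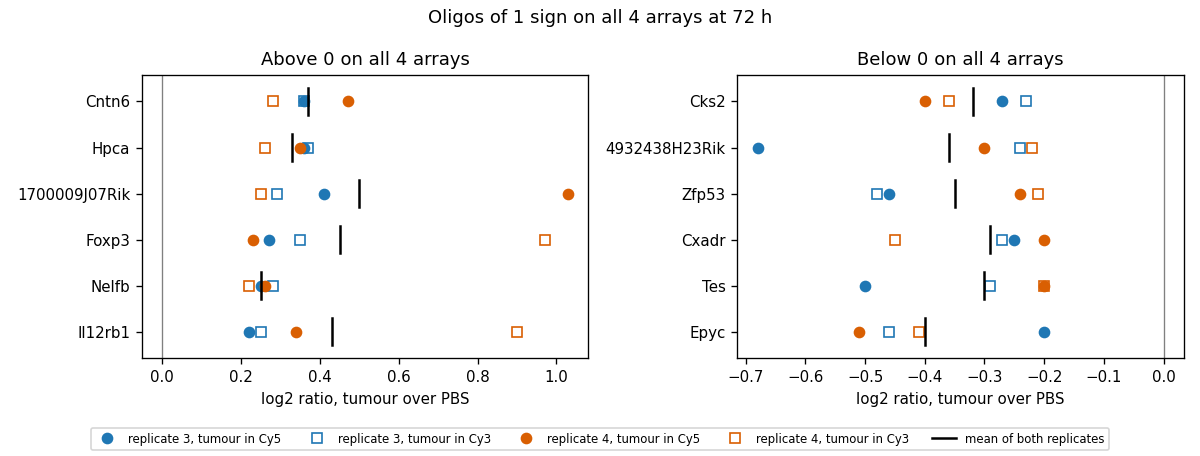
Log2 ratio of tumour over PBS on each of the 4 arrays for the 6 genes above 0 (left) and the 6 below 0 (right) whose weakest array was farthest from 0. Symbols are as in the plot of the smallest p; the arrays of Cntn6, Hpca and Nelfb lie between 0.22 and 0.47.

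The authors' own processing gave related values. In the authors' deposited table, whose logarithm has no stated base, 3852 of the tested oligos had a value on all 4 arrays, and their mean correlated with the log2 ratio used here at r = 0.527, with 68.4% of 1 sign. In the authors' deposited table replicates 3 and 4 correlated at r = -0.079. The authors' deposited table gave Prelid3b 0.20 and 0.00 in replicate 3 and 1.08 and 0.05 in replicate 4, so the Cy5-tumour array of replicate 4 stood apart there too. Of the 20 genes of smallest p, 14 had a value on all 4 arrays in the authors' deposited table, and 14 of them lay on the same side of 0. Those 14 held every gene above 0, but below 0 only Glrb, Cpeb4, Apobec1 and Ramp3. Abcc6, Tor1b, Atp4a, Pygo2, Dnajb12 and Apod lacked a value on at least 1 array. For Atp4a and Dnajb12 this was the Cy5-tumour array of replicate 4, and for Apod that of replicate 3, the arrays that held their means here.

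Among markers of neurons, the list of excitatory neuron and cortical layer genes had 9 of 12 oligos below 0 with a median of -0.07, against 54.4% below 0 and a median of -0.02 over all oligos tested. The list median was -0.14 in replicate 3 and 0.00 in replicate 4. Tle4, a corepressor that marks deep-layer neurons, was measured by 2 oligos. The first read -1.75, 0.24, -0.18 and 0.07 on the 4 arrays and the second read -0.88, -0.13, -0.27 and -0.08. Both were lowest on the Cy5-tumour array of replicate 3, and their means were -0.41 ± 0.17 and -0.34 ± 0.15. Over the 64 genes with 2 tested oligos, both had the same sign in 35 (54.7%).

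Genes of synaptic vesicles and membrane fusion were spread on both sides, 13 above and 11 below 0 with a median of 0.01. Their upper end was Napg, followed by Cplx1, the complexin that clamps fusion (0.43, -0.36, 1.28 and 0.64), and Stx4a, a plasma membrane syntaxin (-0.02, 0.44, 0.49 and 0.64). Replicate 4 was above replicate 3 in all 3. Receptors for GABA and glycine had 3 above and 5 below 0 with a median of -0.03. Besides Glrb, the alpha subunits Gabra2 (-0.24, 0.30, -0.45 and -0.63) and Gabra4 (0.52, -0.18, 0.17 and 0.23) of the GABA receptor came nearest to a difference, with arrays on both sides of 0 in each.

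Oligodendrocyte and myelin genes had 4 of 4 tested oligos below 0, against 54.4% of all oligos, and were the list with the lowest median, -0.23. Only 4 of its 9 oligos on the array could be tested. Mal, a lipid raft protein of myelin, read -0.66, 0.12, -0.41 and -0.18. Olig2, the lineage's transcription factor, read -0.27, 0.05, -0.54 and -0.35, and Mag, the myelin-associated glycoprotein, read -0.29, 0.25, -0.44 and -0.27. All 3 were below 0 on every array except the Cy3-tumour array of replicate 3, where all 3 were above it. Their means were -0.28 ± 0.14, -0.28 ± 0.15 and -0.19 ± 0.14 (limma SE, n = 2), none with an unadjusted p under 0.05. The remaining oligo of the list lay near 0, at -0.02, with -0.17 in replicate 3 and 0.14 in replicate 4. Of the 4 oligos, 75.0% lay in rows 1 to 6, and the list median was -0.16 with loess within blocks.

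Of the vessel markers, endothelial and pericyte genes had 4 of 5 tested oligos below 0 with a median of -0.11, and 2 of the 5 had an unadjusted p under 0.05, both below 0, against 1.14% of all oligos. Rgs5, a signalling regulator that marks pericytes, was below 0 on all 4 arrays (-0.13, -0.57, -0.49 and -0.29), with a mean of -0.37 ± 0.14 and -0.36 with loess within blocks. At the other times it gave -0.11 and -0.10 at 192 h and -0.09 at 18 h. The Rgs5 spot was dim, at percentile 26 of the brightness on these arrays, and gave a ratio in 6 of 12 scans. Eng, the endothelial co-receptor endoglin, rested on replicate 3 (-0.62 and -1.51, against 0.09 and -0.07 in replicate 4). Abcg2, an efflux pump of the blood-brain barrier, went the other way in replicate 4 (-0.89, 0.58, 1.54 and 0.85). The oligos of this list that are not named had means of -0.11 and -0.07, and of -0.06 and 0.06 with loess within blocks.

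Among the immune lists, cytokines, chemokines and NF-kB genes had 6 above and 7 below 0 with a median of -0.01, against a median of -0.02 over all oligos. The neutrophil chemokine Cxcl2 was below 0 on all 4 arrays (-0.22, -0.21, -0.57 and -0.12) and the chemokine Cxcl12 above 0 on all 4 (0.18, 0.14, 0.49 and 0.02). Socs3, a feedback inhibitor of cytokine receptors, was above 0 on 3 arrays (0.27, 0.35, 0.26 and -0.08). Their means were -0.28 ± 0.14, 0.21 ± 0.13 and 0.20 ± 0.15. With loess within blocks these were -0.13, 0.04 and 0.12.

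Microglial markers divided evenly, 3 above and 3 below 0. The lysophospholipid receptor Gpr34 was the upper end (0.68, 0.36, 0.53 and -0.21), and the complement gene C1qb (-1.05, -0.26, 0.15 and -0.06) and the secreted Olfml3 (-1.44, 0.50, -0.34 and 0.30) the lower. In both lower genes the Cy5-tumour array of replicate 3 held the mean. The complement and acute phase list, with 4 of 5 oligos below 0, had a median of -0.16, and -0.01 with loess within blocks. Serpina3n, a glial acute phase inhibitor, shows the width behind that median, with -1.74 and 0.88 in replicate 3 and -0.60 and 0.17 in replicate 4. Crp, the acute phase pentraxin (0.41, -0.37, -0.16 and -0.51), and Cp, the copper carrier ceruloplasmin (-0.23, -0.05, -0.49 and 0.10), had arrays on both sides of 0.

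Stress and activity genes gave no common direction. Glucocorticoid-responsive genes had 6 of 10 below 0 with a median of -0.07. Cdkn1a, the cell cycle inhibitor p21, read -1.78, -0.05, -0.18 and -0.04, so 1 array held its mean of -0.51 ± 0.18. Plin4, a lipid droplet protein, read 0.52, 0.10, 0.48 and -0.32, and Nfkbia, the NF-kB inhibitor, read -0.69, 0.28, -0.26 and 0.05. Immediate early genes, which neurons switch on with activity, had a median of -0.17 in replicate 3 and 0.21 in replicate 4, and 2 of 11 had the same sign in both replicates against 48.6% of all oligos. Egr3 was one of them (0.25, 0.35, 0.09 and 0.33), with a mean of 0.26 ± 0.15, as was Nptx2, a secreted synaptic pentraxin (-0.07, -0.14, -0.30 and -0.06). The replicates of Ier5 lay on opposite sides (-0.74, 0.08, 0.04 and 0.13).

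Among lists of housekeeping machinery, cytosolic ribosomal proteins had 17 of 21 oligos below 0 with a median of -0.08. Of the 21, 76.2% lay in rows 1 to 6, and the median was 0.01 with loess within blocks. Rpl29 was below 0 on all 4 arrays (-0.46, -0.13, -0.15 and -0.36), as was Rpl13a (-1.23, -0.10, -0.10 and -0.03), while Rpl34 was above 0 on 3 (0.47, -0.06, 0.43 and 0.15). Ribosomal genes have many near-identical pseudogenes, so their oligos may also bind related transcripts. Oxidative phosphorylation genes had 25 of 39 below 0 with a median of -0.04, from -0.14 in replicate 3 to 0.02 in replicate 4. Cox4i1, a subunit of cytochrome c oxidase, read 0.39, -0.27, 0.82 and 0.33, and the ATP synthase subunits Atp5k (-0.56, -0.35, -0.20 and 0.14) and Atp5j2 (0.11, -0.59, -0.14 and -0.19) were below 0 on 3 arrays each.

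The proteasome list had 8 of 13 oligos above 0 with a median of 0.06, and the list of glycolysis and its control had 8 of 14 above 0 with a median of 0.00. Heat shock proteins and chaperones had 12 of 20 below 0 with a median of -0.06, and 2 of the 20, Tor1b and Dnajb12, had an unadjusted p under 0.05, both below 0, against 1.14% of all oligos. Dnajc3, an inhibitor of the kinase that slows translation under stress, read -0.48, 0.11, -0.60 and 0.12, with both Cy5-tumour arrays below and both Cy3-tumour arrays above 0. Of 37 lists examined in all, 29 had a median below 0, and 16 did with loess within blocks.

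**Figure D5:**
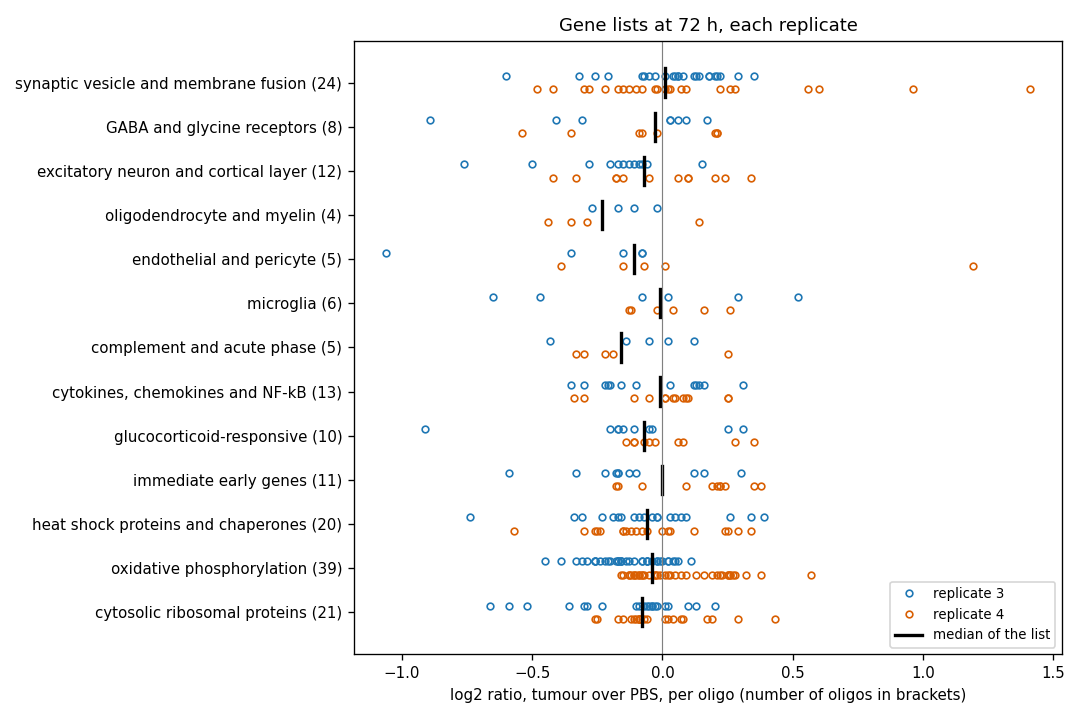
Log2 ratio of tumour over PBS of each tested oligo of 13 gene lists in replicate 3 (blue) and replicate 4 (orange), with the number of oligos in brackets and the list median of both replicates as a black bar. The list medians lie between -0.23 and 0.01, and single oligos of both replicates lie on both sides of 0 in most lists.

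The 72 h ratios were then compared with those of the other times. Both arrays of replicate 3 at 192 h were of another array platform than all other total RNA arrays. Fits without this replicate are given further below. They drop the replicate together with the platform and leave only replicate 4 at 192 h. How far the platform itself affects the comparison was therefore not tested. Of 1232 oligos measured at every time, limma called 0 (0%) for 72 h against the mean of 18 and 192 h, with 32 at an unadjusted p under 0.05 (2.6%) and a smallest adjusted p of 0.986. Prelid3b stood 0.94 ± 0.21 above the other times, Ncbp2 0.85 ± 0.22, Svbp 0.67 ± 0.21 and Dag1 0.65 ± 0.21 (limma SE), each with an adjusted p of 0.986. Atp4a stood -0.72 ± 0.31 from them. These genes were chosen for a small p at 72 h. The same 72 h values enter this contrast, so it adds no separate support for them. Against 192 h alone, limma called 0 of 1933 oligos (0%), with 72 at an unadjusted p under 0.05 (3.72%) and a smallest adjusted p of 0.594. Of the 31 genes chosen by small p or by 1 sign on all arrays, 8 had enough values at every time for the first of these tests.

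Cell type markers were measured in part. Of the oligos on the array, 46.9% could be tested at 72 h. The shares were 85.7% for astrocyte markers (6 of 7), 66.7% for excitatory neurons (12 of 18) and for interneurons (8 of 12), 44.4% for oligodendrocytes (4 of 9) and 46.2% for microglia (6 of 13). For tissues that could have been carried along they were 50% for striatal neurons (3 of 6), 40.0% for choroid plexus and ependyma (2 of 5) and 37.5% for blood cells (3 of 8). The medians of the last 3 lists were -0.14, -0.07 and 0.00.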

How the data were processed

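Per the labels' protocols, RNA of the prefrontal cortex was reverse transcribed, labelled with Cy3 or Cy5 and hybridised to in-house oligo arrays. Per the file headers, the deposited scanner tables hold, for 3 scans of 10080 spots, an intensity per channel with the background already subtracted and a fraction of unsaturated pixels. The authors' deposited value tables hold 1 log ratio per spot, a score here because its base and normalization are not stated. Channel B was read as Cy5. The image program was not named in the sources used here.

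Spots marked B or C in both channels, marks whose meaning is not stated and which were taken as good, with both intensities above 0 and at least 0.9 of the pixels unsaturated entered the log2 ratio. Loess (span 0.3) was run per scan over all such spots of the slide. Those of the 3 scans that gave a ratio were averaged, and 1 was enough. Pygo2, for example, had a ratio in 4 of 12 scans over the 72 h arrays. Cy3-tumour arrays were sign-turned, and both arrays of a swap were averaged. Limma 3.58.1 (R 4.3.3) was fitted to the replicate values of 18 h (3), 72 h (2) and 192 h (2), with 1 coefficient per time and a shared spread. Limma also draws the spread of each oligo toward that of all oligos. Foxp3, Zfp53 and Epyc had no value at 18 or 192 h. The SE of such oligos rests on 2 replicates of their own and in large part on the other oligos. The test was two-sided with Benjamini-Hochberg adjustment over all oligos tested, which needed 2 replicate values at 72 h. The limma fit was tested on simulated replicate values with independent normal noise of 1 spread for all oligos. These held no dye or position effects, so they cannot show how the fit handles such effects. Oligos were named through the platform annotation, where 9066 spots had 1 gene, 12 several and 1002 none, with 8909 of 8997 accessions of 1 gene found in the GRCm38.p6 table. No column of another sample was used.

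Named were the 10 genes of smallest p in each direction, the 6 in each direction whose weakest array was farthest from 0 among oligos of 1 sign on all 4 arrays, and, in each list described, 3 members of smallest p (the rule allowed up to 4). The arrays, the 37 gene lists and the rules were chosen with earlier results of these data known, and the 13 lists described were picked after their values were seen. The intensities entered as deposited, and normexp (offset 50), fitted on spots above 0 in both channels, was an alternative, as were median centring, loess within blocks, other spot filters, single scans, the authors' log ratios and leaving out replicates. Replicate numbers 3 and 4 occur at both 72 and 192 h, and the deviations of same-numbered replicates from their group means correlated at r = -0.000194 over 1933 oligos, so the numbers were not taken as pairs. Intervals cover the spread between replicates as drawn together by limma, and the number of arrays limits their precision.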

Additional observations from a re-analysis of the deposited data

Results flagged for a closer look

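For 7 of the genes named, 1 of the 4 arrays stood apart from the other 3 by Dixon's test at the 95% level. The test was run on 69 sets of 4 values, and chance alone flags about 1 set in 20. On the Cy5-tumour array of replicate 3, Cdkn1a read -1.78 (the other arrays -0.18 to -0.04), Rpl13a read -1.23 (-0.10 to -0.03), Ier5 read -0.74 (0.04 to 0.13) and Abcc6 read -0.07 (-0.85 to -0.73). On the Cy3-tumour array of replicate 4, Foxp3 read 0.97 (the others 0.23 to 0.35) and Hpca read 0.26 (0.35 to 0.37). On the Cy3-tumour array of replicate 3, Otof, a calcium sensor of vesicle fusion, read 0.33 (the others -0.49 to -0.37). Without replicate 3, the log2 ratio of Ier5 was 0.09.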

How the results depend on the processing

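No oligo was called at 72 h under normexp, median centring, loess within blocks, no saturation filter, any 1 scan alone, the authors' log ratios, trend and robust settings, the 72 h replicates alone, arrays as observations with a dye term, or 1 array of a swap as enough. These tested 1849 to 8168 oligos and gave 36 to 203 at an unadjusted p under 0.05, 52 of them with median centring against 103 in the main setting. With the dimmest 25% of the spots left out, 1 of 2618 was called, Prelid3b (0.83, adjusted p = 0.019). Leaving out each replicate gave 0 to 1 calls; the 1 came without 72 h replicate 4 (Polr3gl, -2.40), where the remaining replicate is assumed to vary like the other groups. Alternatives chosen after seeing the data took a replicate from its Cy3-tumour array alone, which does not cancel dye effects. They called 0 for replicate 4, 11 for replicate 3 and 66 for both. Against 18 and 192 h, leaving out each replicate gave 0 to 4 calls (Prelid3b, Ncbp2, Napg and Atp4a without 72 h replicate 3). Against 192 h it gave 0 to 5, with 5 without 192 h replicate 3, 4 without 72 h replicate 3 and 1 without 192 h replicate 4. With the replicate number as a block, 0 of 1933 oligos were called against 192 h (70 at an unadjusted p under 0.05, against 72), and the numbers share only a label.

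The count of lists with a median below 0 fell from 29 to 16 with loess within blocks, 18, 17 and 19 with scans 1, 2 and 3 alone, 13 with the authors' log ratios, and 18 and 19 with replicate 4 or replicate 3 from its Cy3-tumour array alone. The cause was not tested.

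The 66 oligos counted for the genes named include both of Tle4 and, for Pfkfb2, only the one with the smaller p. All of them with a value kept their direction under normexp, no saturation filter, each scan alone, the dim filter and the other limma settings. Direction turned in 4 with loess within blocks (Tes 0.06, Serpina3n 0.08, Rpl13a 0.13 and Rpl34 -0.01), in Olfml3 with median centring (0.01), and in 6 with the authors' log ratios (Cxcl12 -0.01, Rpl34 -0.03, Ier5 0.01, Nptx2 0.01, Rpl13a 0.06 and Tes 0.30). With replicate 4 from its Cy3-tumour array alone Plin4 turned (-0.01). With replicate 3 treated so, Ier5 (0.08), Glrb (0.09), Nfkbia (0.09), Tle4 (0.09, first oligo), Apod (0.17), Cpeb4 (0.19), Olfml3 (0.24), Apobec1 (0.29) and Serpina3n (0.33) turned. With both, 16 turned: Pfkfb2 (-0.01), Nt5c3b (-0.06), Plin4 (-0.11), Svbp (-0.15), Cp (0.03), Atp4a (0.05), Ier5 (0.11), Dnajc3 (0.12), Tle4 (0.16), Nfkbia (0.17), Glrb (0.22), Apod (0.29), Cpeb4 (0.33), Apobec1 (0.36), Olfml3 (0.40) and Serpina3n (0.53). Leaving out each replicate in turn moved Eng between -1.06 and 0.01, C1qb between -0.65 and 0.04, Ier5 between -0.33 and 0.09, Abcg2 between -0.15 and 1.19, Crp between -0.33 and 0.02 and Gabra2 between -0.54 and 0.03, and turned no other gene named.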

Other observations

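With loess within blocks, 121 oligos had an unadjusted p under 0.05 (72 above and 49 below 0). Of them, 57 were also among the 103 found without it, which is 47.1% of the first list and 55.3% of the second. Of the 72 above 0, 27 lay in rows 7 to 12 of the blocks, against 48 of 55 before. The leading genes changed as well. The smallest p above 0 then belonged to Bmp15, an oocyte growth factor, and Crx, a photoreceptor transcription factor, both chosen after their values were seen. Bmp15 read -0.09, 1.72, -1.37 and 3.91 on the 4 arrays (replicate 3 with tumour in Cy5 and in Cy3, then replicate 4 in the same order). Crx read -0.50, 1.90, -1.40 and 3.26. Both were below 0 on the Cy5-tumour arrays and above 0 on the Cy3-tumour arrays, the form of the dye arm, and their adjusted p was 0.515. Prelid3b (0.57), Abcc6 (-0.54) and Glrb (-0.47) were among the 4 smallest p of their direction under both normalizations. After loess within blocks Prelid3b read 0.48, 0.06, 1.73 and 0.00, and Glrb read -2.00, 0.55, -0.48 and 0.04. In each of these, 1 array still lay far from the rest. Abcc6 read -0.04, -0.79, -0.50 and -0.82. Ccdc90b was below 0 on all 4 arrays after loess within blocks (-0.37, -0.30, -0.50 and -0.24), as was Pkd1l2 (-0.68, -0.24, -0.39 and -0.36), and both lie in rows 10 to 12, where values before that step ran higher.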
